A study of Mus musculus with 6 samples.

Results

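The mRNAs of the cytosolic translation initiation and elongation factors were examined in NIH/3T3 cells, an immortalised mouse fibroblast line, after knockdown of the glycolytic enzyme aldolase A (Aldoa). Genes whose symbol begins with Eif1 to Eif5, Eef1 or Eef2 were taken from the deposited expression table, which matched 64 of its 18001 genes. Gene positions are those of GENCODE vM21 on GRCm38 (mm10). The 4 Eif2ak kinases, Eif4a3, Eef1e1, the 3 modifying enzymes Eef1akmt1, Eef2k and Eef2kmt and 6 pseudogenes whose symbols carry -ps were left out, so 49 genes remained. The siAldoa group had been transfected for 48 h with a pool of siRNAs against Aldoa, and the siCtrl group for the same time with non-targeting siRNAs. Each group had 3 libraries of poly(A) RNA, no other treatment or allele separates the groups, and the labels give the cell type only as fibroblast. The study asked how the loss of single genes affects the expression of ribosome biogenesis genes.

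Initiation begins when eIF4E binds the cap of an mRNA and, with the scaffold eIF4G and the helicase eIF4A, prepares it for the small ribosomal subunit, which arrives loaded with eIF1, eIF1A, eIF3, eIF5 and the eIF2 complex that carries the initiator tRNA. After the start codon is found, eIF5 triggers GTP hydrolysis by eIF2, eIF2B reloads eIF2 with GTP, and eIF5B promotes the joining of the large subunit. During elongation eEF1A delivers aminoacyl-tRNAs, the eEF1B subunits recycle it, and eEF2 moves the ribosome along codon by codon. Many mRNAs of this machinery are abundant in dividing cells, and several belong to the TOP mRNAs, which start with a C followed by a run of pyrimidines and whose translation depends on mTOR.

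The genes fell into eIF1 and eIF1A (4 genes), the eIF1A-domain protein Eif1ad, eIF2 (3), the non-canonical factors eIF2A and eIF2D (2), eIF2B (5), eIF3 (13), eIF4 (9), the 4E-BPs (2), eIF5, eIF5A and eIF5B (4), eEF1 (4) and eEF2 (1). Eif2c5 also matched the rule, although its name points to an Argonaute protein and the annotation lists it as a long non-coding RNA. Eif2s2, Eif3m, Eif4e3, Eef1a2 and Eif4ebp3 were not analysed here.

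Read totals lay between 3692341 and 3771129, so that 3 reads corresponded to 0.786 to 0.822 CPM (counts scaled to a common library size). The targeted gene Aldoa had 522, 536 and 545 CPM in the siCtrl libraries and 62.9, 69.2 and 72.0 CPM in the siAldoa libraries, a log2 fold change of -2.96. Of the fibroblast markers 8 of 8 were in the table, and their summed level was 13075 to 13612 CPM in siCtrl and 10803 to 11474 CPM in siAldoa. The collagen genes Col1a1 and Col1a2 and Vim made up most of this sum and were called lower with S100a4, whereas Pdgfrb (log2 fold change 1.14), Fn1 (0.30) and Thy1 (0.23) were called higher and Col3a1 was not called. Of the 13 markers of epithelial, endothelial, blood, nerve and muscle cells 5 were in the table, summing to 13.4 to 16.7 CPM in siCtrl and 5.76 to 8.29 CPM in siAldoa, and the part of these shifts in the results was not tested. Replicates 1 and 2 of a group were closer to each other (chi-square per degree of freedom 1.12 in siCtrl and 1.11 in siAldoa) than either was to replicate 3 (1.97 to 3.03).

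Most factor mRNAs that differed between the groups were lower after Aldoa knockdown. By limma on log2(CPM + 1) with Benjamini-Hochberg adjustment over all genes at a threshold of 0.05, 22 of the 49 genes were lower in siAldoa, 7 were higher and 20 were not called. Over all genes 10.0% were called lower and 10.4% higher, against 44.9% and 14.3% of the factors. Among the 8271 genes with a mean of at least 20 CPM, which include 47 of the factors, the shares were 19.1% and 17.5%, so that the share of higher factors lay near the background. Calls were more frequent at higher levels over all genes. With a mean of at least 500 CPM over the 6 libraries 7 of 12 factors were lower and 4 higher, against 42.4% and 21.0% of all such genes. Between 100 and 500 CPM 12 of 22 factors were lower and 2 higher, against 30.8% and 19.2%, and under 100 CPM 3 of 15 were lower and 1 higher, against 6.6% and 8.95%. The median log2 fold change was -0.13 over the factors and -0.0023 over all genes, and that of the factors was -0.075 under quantile normalization and -0.054 over the 26 factors without a near-identical copy elsewhere in the table. By level the medians were -0.14 for factors and -0.042 for all genes at 500 CPM or more. Between 100 and 500 CPM they were -0.16 and -0.037, and under 100 CPM -0.051 and 0.0053. The changes were small, from -0.49 for Eif1ax to 0.29 for Eif2b2.

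All 3 siAldoa libraries lay below all 3 siCtrl libraries for 23 factors and above them for 10. Over all genes this was so for 17.1% and 16.7%, and among genes of at least 20 CPM for 26.0% and 24.0%. Of the 29 called factors 13 were called in each of 9 further fits that left out 1 library or 1 replicate number of both groups, namely Eef1a1, Eef2, Eif1a, Eif1ax, Eif3b, Eif3c, Eif3j2, Eif4a1, Eif4b, Eif4ebp1, Eif4g1, Eif4h and Eif5a. Without siCtrl replicate 1 there were 19 lower and 5 higher factors, and Eef1g, Eif2b2, Eif3a, Eif3l and Eif4e2 lost the call. Without siCtrl replicate 2 there were 19 and 7 (Eif2s3x, Eif3g and Eif3l lost), and without siCtrl replicate 3 there were 18 and 5 (Eif2b2, Eif2s3x, Eif3a, Eif3g, Eif3l and Eif4e2 lost). Leaving out siAldoa replicate 1 gave 19 and 6 (Eif3a, Eif3g, Eif3l and Eif4e2 lost), siAldoa replicate 2 gave 16 and 5 (Eef1d, Eef1g, Eif2b2, Eif2s3x, Eif3a, Eif3g, Eif3l and Eif4e2 lost), and siAldoa replicate 3 gave 20 and 6 (Eif2b2, Eif2s3x and Eif4e2 lost). Leaving out both libraries of a number gave 13 and 3 (replicate 1), 12 and 4 (replicate 2) and 12 and 3 (replicate 3). Calls also fell over all genes, to 7.32% to 7.62% lower and 7.26% to 8.13% higher without 1 library. Without both libraries of a number they were 2.89% to 3.84% lower and 2.74% to 4.11% higher.

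**Figure D1:**
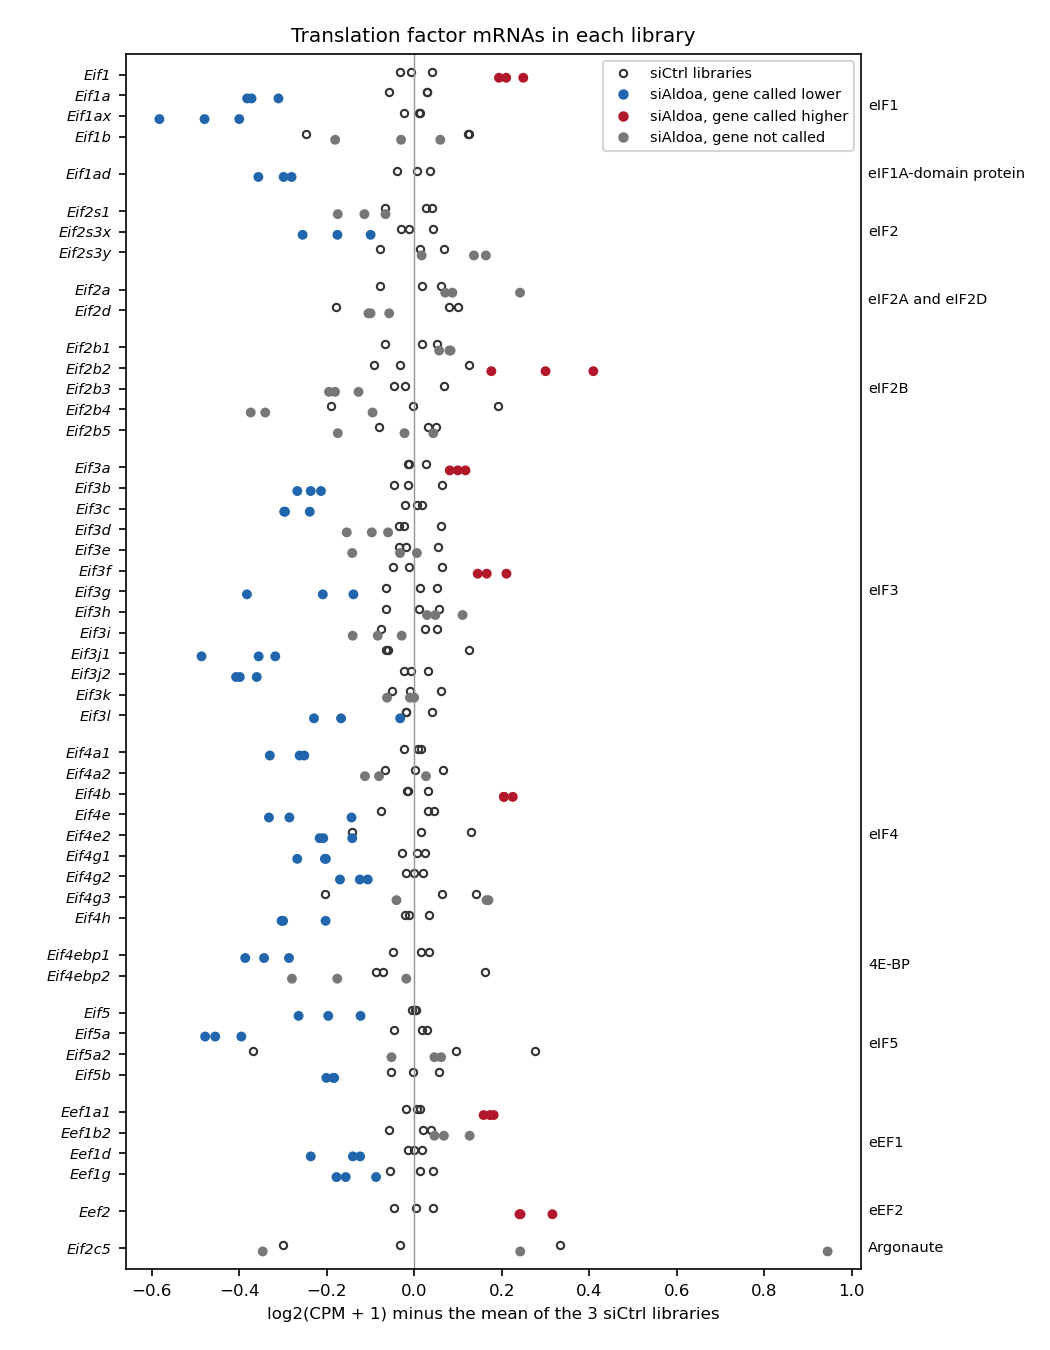
Level of each of the 49 genes in each library, as log2(CPM + 1) minus the mean of the 3 siCtrl libraries (x axis), with genes grouped by complex (y axis). Open circles are siCtrl libraries and filled circles siAldoa libraries, coloured by the limma call. On average the siAldoa libraries of Eif1ax and Eif5a lie farthest to the left among the called genes. Those of Eef1a1 and Eef2 lie to the right of their siCtrl libraries.

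The quasi-likelihood test of edgeR on the recovered reads also called 22 factors lower and 7 higher (10.4% and 10.7% of all genes), and DESeq2 called 19 and 6 (6.21% and 5.92%), without Eif2b2, Eif2s3x, Eif3g and Eif4e2. Quantile normalization of the libraries shifted the split to 15 lower and 8 higher (9.35% and 9.73%): Eef1a1, Eef1d, Eef1g, Eif2s3x, Eif3l, Eif4e2, Eif4g2 and Eif5 lost the call, and Eef1b2 and Eif2a were called higher. limma without a mean-variance trend, which lets genes of every level share a single prior for the spread, called 6 factors lower (Eif1a, Eif1ad, Eif1ax, Eif3j2, Eif4ebp1 and Eif5a) and 0 higher (3.42% and 4.58% of all genes). At an unadjusted p under 0.05 the same fit had 17 lower and 6 higher factors.

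**Figure D2:**
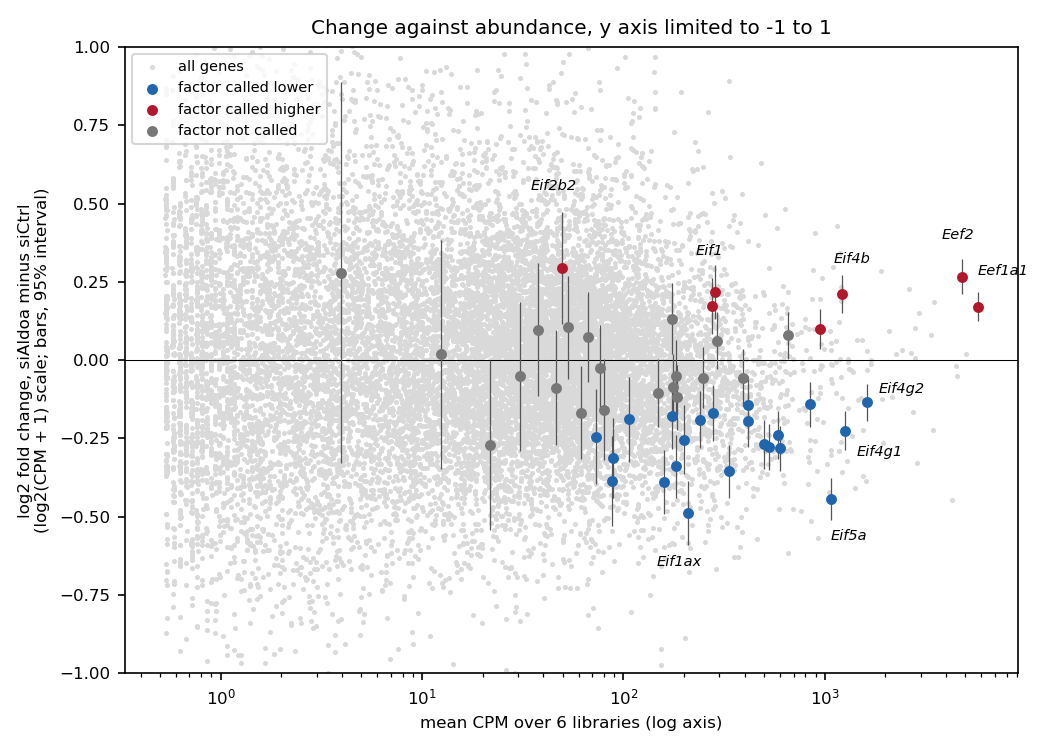
Log2 fold change of siAldoa against siCtrl on the log2(CPM + 1) scale (y axis) against the mean CPM over the 6 libraries (x axis, log scale). Grey dots are the genes of the table with a mean above 0.5 CPM, coloured dots the factors, and bars 95% confidence intervals. Of the 12 factors with a mean of at least 500 CPM 7 were called lower and 4 higher, and of the 15 with a mean under 100 CPM 3 were called lower and 1 higher.

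In the eIF4 group the mRNAs of the helicase Eif4a1, the scaffolds Eif4g1 and Eif4g2, the cap-binding proteins Eif4e and Eif4e2 and the helicase cofactor Eif4h were lower, and that of the other cofactor, Eif4b, was higher. Of 9 measured genes 6 were called lower, 1 was called higher, and Eif4a2 and Eif4g3 were not called. Among all genes 42.4% were called lower and 21.0% higher at 500 CPM or more. Between 100 and 500 CPM the shares were 30.8% and 19.2%. Eif4a1 (ENSMUSG00000059796, chr11:69666936-69672423, minus strand), the main DEAD-box helicase of initiation, had 661, 647 and 664 CPM in the siCtrl libraries and 552, 523 and 548 CPM in the siAldoa libraries. The groups did not overlap, and the log2 fold change was -0.28 (SE, the standard error, 0.035, limma adjusted p = 2.2e-06). Its paralogue Eif4a2 had 384, 402 and 421 CPM in the siCtrl libraries and 409.7, 372 and 380.2 CPM in the siAldoa libraries. These groups overlapped, the log2 fold change was -0.06 with a 95% interval of -0.15 to 0.03 (limma adjusted p = 0.43), and its sign turned under quantile normalization (0.0037). The ratio of Eif4a1 to Eif4a2 CPM, not corrected for length, was 1.64 ± 0.0763 in siCtrl and 1.40 ± 0.0473 in siAldoa (SD, n = 3, two-sided exact permutation p = 0.1, the lowest possible with 3 against 3 libraries). It leaves out reads placed on near-identical copies of Eif4a1, while Eif4a2 has no such copy. The pseudogene Eif4a-ps4 alone had 1296 CPM in siCtrl and 1061 CPM in siAldoa, so the ratio does not give the balance of the paralogues.

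Eif4g1 (ENSMUSG00000045983, chr16:20668313-20692884, plus strand), the scaffold that joins eIF4E, eIF4A and eIF3, had 1358, 1376 and 1326 CPM in the siCtrl libraries and 1124, 1174 and 1176 CPM in the siAldoa libraries. The siAldoa libraries all lay below the siCtrl libraries, with a log2 fold change of -0.22 (SE 0.030, limma adjusted p = 6.5e-06). Eif4g2, a scaffold that does not bind eIF4E, had 1689, 1714 and 1668 CPM in the siCtrl libraries and 1569.8, 1550.1 and 1502 CPM in the siAldoa libraries. Its groups did not overlap either, with a log2 fold change of -0.13 (limma adjusted p = 0.0013), and the call was kept in 7 of the 9 fits with libraries left out. Eif4g3, the second eIF4E-binding scaffold, had 37.8, 39.9 and 31.2 CPM in the siCtrl libraries and 40.7, 40.6 and 35.1 CPM in the siAldoa libraries. The groups overlapped, and the 95% interval of its log2 fold change was -0.12 to 0.31.

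Eif4e, the cap-binding protein, had 224, 205 and 221 CPM in the siCtrl libraries and 196, 177 and 172 CPM in the siAldoa libraries. The groups did not overlap (log2 fold change -0.25, limma adjusted p = 0.0011), and 7 of the 9 fits with libraries left out called it. Eif4e2, a cap-binding homologue known for repression of translation, had 115, 103 and 124 CPM in the siCtrl libraries and 98.2, 103 and 97.7 CPM in the siAldoa libraries. Here siCtrl replicate 2 was level with siAldoa replicate 2, and the call (log2 fold change -0.19, limma adjusted p = 0.043) was kept in only 1 of the 9 fits with libraries left out and was lost with a replicate block (limma adjusted p = 0.088).

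The RNA-binding cofactors of eIF4A differed in direction. Eif4h (ENSMUSG00000040731, chr5:134619721-134639490, minus strand) had 539.9, 537 and 557 CPM in the siCtrl libraries and 441, 442 and 473 CPM in the siAldoa libraries. Eif4b (ENSMUSG00000058655, chr15:102073773-102097173, plus strand), which shares its role of stimulating the helicase, had 1160.0, 1121 and 1124 CPM in the siCtrl libraries and 1308, 1308 and 1326 CPM in the siAldoa libraries. Neither pair of groups overlapped, and the log2 fold changes were -0.27 for Eif4h (SE 0.038, limma adjusted p = 1.2e-05) and 0.21 for Eif4b (SE 0.029, limma adjusted p = 9.3e-06).

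The promoters of 3 lower eIF4 genes are shown because each carries the E-box CACGTG, the site bound by Myc-Max and other basic helix-loop-helix factors, near its start. The stretches reach from 110 bases before to 30 after the RefSeq transcript start (GRCm38.p6), at chr16:20672617-20672756 on the plus strand for Eif4g1, chr3:138527158-138527297 on the plus strand for Eif4e and chr5:134639380-134639519 on the minus strand for Eif4h. Each is written 5′ to 3′ along the gene with the motif in capitals.
Eif4g1: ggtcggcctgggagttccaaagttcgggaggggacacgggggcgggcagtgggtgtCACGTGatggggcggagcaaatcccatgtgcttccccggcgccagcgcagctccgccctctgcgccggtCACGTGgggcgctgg
Eif4e: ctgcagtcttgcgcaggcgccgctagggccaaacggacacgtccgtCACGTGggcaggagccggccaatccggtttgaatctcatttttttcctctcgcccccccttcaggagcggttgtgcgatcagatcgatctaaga
Eif4h: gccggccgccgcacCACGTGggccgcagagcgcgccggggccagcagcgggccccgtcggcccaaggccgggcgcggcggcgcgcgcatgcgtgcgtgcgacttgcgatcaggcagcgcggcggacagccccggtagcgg
In Eif4g1 the motif begins 54 bases before and 16 bases after the start, in Eif4e 64 bases before it and in Eif4h 96 bases before it. A match describes the letters only, and binding was not measured.

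The 4E-BPs hold eIF4E back from eIF4G when mTOR is inactive. Eif4ebp1 (ENSMUSG00000031490, chr8:27260329-27276674, plus strand) had 208, 197 and 206 CPM in the siCtrl libraries and 160.3, 156 and 167 CPM in the siAldoa libraries. The libraries of the groups were fully separate, with a log2 fold change of -0.34 (SE 0.049, limma adjusted p = 1.5e-05). Eif4ebp2 had 80.5, 94.9 and 79.6 CPM in the siCtrl libraries and 69.6, 83.7 and 74.9 CPM in the siAldoa libraries. These groups overlapped and the gene was not called (log2 fold change -0.16, 95% interval -0.32 to 0.00). The ratio of Eif4ebp1 to Eif4e CPM was 0.941 ± 0.0157 in siCtrl and 0.889 ± 0.0771 in siAldoa, a difference within the spread of the siAldoa libraries (exact permutation test, two-sided, n = 3 per group, p = 0.4). Both genes have a near-identical pseudogene copy, whose reads are not in this ratio.

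eIF3, the largest initiation factor, organises the small subunit complex, and its mRNAs did not share a direction. Of 13 measured genes 6 were called lower (Eif3b, Eif3c, Eif3g, Eif3j1, Eif3j2 and Eif3l) and 2 higher (Eif3a and Eif3f). Of all genes of at least 20 CPM 19.1% were called lower and 17.5% higher. Of the 7 measured subunits of the PCI and MPN octamer, the structural core, 2 were lower (Eif3c and Eif3l) and 2 higher. Of the 6 genes outside the octamer 4 were lower and 0 higher by limma, with 0 higher at an unadjusted p under 0.05 and 0 higher by edgeR and DESeq2. These lower genes include Eif3j1 and Eif3j2, whose transcripts are nearly identical. Their reads cannot be fully told apart, so the counts of lower genes hold them as separate genes although their calls are not separate support.

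Eif3c (ENSMUSG00000030738, chr7:126546455-126566411, minus strand), an octamer subunit, had 585, 580.5 and 569.9 CPM in the siCtrl libraries and 470.4, 489.9 and 471 CPM in the siAldoa libraries. Its groups did not overlap, with a log2 fold change of -0.28 (SE 0.035, limma adjusted p = 3.0e-06). Eif3j2 (ENSMUSG00000043424), a gene nearly identical to Eif3j1 in its transcript, had 185, 179 and 180.4 CPM in the siCtrl libraries and 137, 137 and 141 CPM in the siAldoa libraries. Eif3j1, the loosely bound subunit that contacts the decoding centre, had 95.3, 95.7 and 109 CPM in the siCtrl libraries and 79.9, 77.8 and 71.0 CPM in the siAldoa libraries. In both genes every siAldoa library lay below every siCtrl library, with log2 fold changes of -0.39 (SE 0.049, limma adjusted p = 2.6e-06) and -0.39 (SE 0.069, limma adjusted p = 0.00021). The transcripts are 99.4% identical over 2379 bases, so the division of reads between them is uncertain, and their sum also had a log2 fold change of -0.39.

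Among the other lower eIF3 genes, Eif3b, a scaffold subunit with an RNA recognition motif, changed by -0.24 on the log2 scale (limma adjusted p = 3.3e-05). Eif3g, its RNA-binding partner, changed by -0.24 (limma adjusted p = 0.019) and Eif3l by -0.14 (limma adjusted p = 0.023). The calls of Eif3g and Eif3l were not stable when libraries were left out. Eif3g was called in 2 of the 9 such fits (log2 fold changes of -0.30 to -0.15). Eif3l was called in 1 of the 9 (log2 fold changes of -0.20 to -0.10), and the reason was not tested. Eif3d, which can itself bind caps, Eif3e, Eif3h, Eif3i and Eif3k were not called, with log2 fold changes from -0.10 (Eif3d) to 0.06 (Eif3h).

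Eif3a, the largest eIF3 subunit, had 902, 928 and 904 CPM in the siCtrl libraries and 964, 988 and 976 CPM in the siAldoa libraries. The groups did not overlap, the log2 fold change was 0.10 (limma adjusted p = 0.024), and 2 of the 9 fits with libraries left out called it. Eif3f, an MPN-domain subunit, had 249, 255 and 269 CPM in the siCtrl libraries and 289, 285 and 298 CPM in the siAldoa libraries. It was higher in every siAldoa library (log2 fold change 0.17, limma adjusted p = 0.0056), and 6 of the 9 fits called it. Its promoter stretch (chr7:108934305-108934444 on the plus strand, GRCm38.p6) is printed to show that a higher gene can also carry the E-box, here in capitals and beginning 68 bases before the RefSeq start.
Eif3f: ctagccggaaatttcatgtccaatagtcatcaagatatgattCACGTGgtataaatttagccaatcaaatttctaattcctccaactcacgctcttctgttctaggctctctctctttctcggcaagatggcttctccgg

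eIF1 and eIF1A keep the scanning subunit open until a start codon is met, and their called mRNAs differed in direction. Eif1ax (ENSMUSG00000067194, chrX:159372178-159389928, plus strand), the eIF1A gene of the X chromosome, had 246, 240.2 and 247 CPM in the siCtrl libraries and 185, 163 and 175 CPM in the siAldoa libraries. Eif1a (ENSMUSG00000057561), its autosomal paralogue, had 383, 383 and 360.1 CPM in the siCtrl libraries and 302, 288 and 289.6 CPM in the siAldoa libraries. In both, the groups were clearly apart, with log2 fold changes of -0.49 (SE 0.050, limma adjusted p = 1.2e-07) and -0.36 (SE 0.042, limma adjusted p = 8.6e-07). That of Eif1ax was the lowest of all 49 genes. Eif1ad, which encodes a nuclear protein with an eIF1A-like domain, was lower as well (98.5 ± 2.60 to 79.2 ± 2.19 CPM, mean ± SD, n = 3, log2 fold change -0.31, limma adjusted p = 0.00059).

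Eif1, which guards the accuracy of start codon choice, had 259, 272 and 263 CPM in the siCtrl libraries and 306, 303 and 315 CPM in the siAldoa libraries. Every siAldoa library was higher than every siCtrl library (log2 fold change 0.22, limma adjusted p = 0.00045), and 7 of the 9 fits with libraries left out called the gene. Its paralogue Eif1b had 34.0, 26.0 and 33.9 CPM in the siCtrl libraries and 32.4, 27.3 and 30.4 CPM in the siAldoa libraries. Those groups overlapped, and the 95% interval of the log2 fold change was -0.29 to 0.19. The Eif1 promoter (chr11:100319839-100319978 on the plus strand, GRCm38.p6) is printed with a TATA-like match in capitals, which begins 8 bases after the RefSeq start.
Eif1: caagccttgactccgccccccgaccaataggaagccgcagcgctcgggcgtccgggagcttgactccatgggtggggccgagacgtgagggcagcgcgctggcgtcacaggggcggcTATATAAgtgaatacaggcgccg

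Of the 3 measured genes of the eIF2 complex, which brings the initiator tRNA, 1 was called, against 19.1% lower and 17.5% higher among all genes of at least 20 CPM. Eif2s3x, the X-linked gamma subunit, had 181, 190.1 and 183 CPM in the siCtrl libraries and 172, 163 and 154 CPM in the siAldoa libraries. The groups did not overlap (log2 fold change -0.18, limma adjusted p = 0.015), but only 2 of the 9 fits with libraries left out called it. Eif2s3y, the copy of the Y chromosome, had 48.2, 51.4 and 53.4 CPM in the siCtrl libraries and 57.2, 56.1 and 51.6 CPM in the siAldoa libraries. Its groups overlapped (log2 fold change 0.11, limma adjusted p = 0.41). The ratio of Eif2s3x to Eif2s3y CPM, not corrected for length, was 3.62 ± 0.174 in siCtrl and 2.97 ± 0.0540 in siAldoa, without overlap (SD, n = 3, two-sided exact permutation p = 0.1). It leaves out reads placed on the pseudogene Gm2223, which is 100% identical to Eif2s3x over 1350 bases. Gm2223 had 138 CPM in siCtrl and 124 CPM in siAldoa, while Eif2s3y has no near copy, so the ratio does not give the balance of the X and Y genes. Eif2s1, the alpha subunit phosphorylated in the integrated stress response, was not called (log2 fold change -0.12, limma adjusted p = 0.1), nor were Eif2a (0.13) and Eif2d (-0.09).

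Of the 5 genes of eIF2B, the exchange factor that reactivates eIF2, 1 was called. Among all genes of at least 20 CPM 17.5% were called higher and 19.1% lower, so this count does not set eIF2B apart. Eif2b2, its beta subunit, had 43.3, 48.4 and 41.5 CPM in the siCtrl libraries and 50.2, 54.8 and 59.2 CPM in the siAldoa libraries, with no overlap and a log2 fold change of 0.29 (limma adjusted p = 0.017), the highest of the called factors. It was called in 2 of the 9 fits with libraries left out (log2 fold changes of 0.19 to 0.36). Eif2b1, Eif2b3, Eif2b4 and Eif2b5 were not called, with log2 fold changes from -0.27 (Eif2b4) to 0.07 (Eif2b1).

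Eif5a (ENSMUSG00000078812, chr11:69916714-69921958, minus strand) had the smallest adjusted p of the 49 genes. It encodes the hypusine-containing protein that, in spite of its name, helps the elongating ribosome across difficult stretches such as runs of proline. It had 1259, 1194 and 1249.6 CPM in the siCtrl libraries and 938, 885 and 899 CPM in the siAldoa libraries. The groups lay far apart, with a siAldoa mean of 73.5% of the siCtrl mean and a log2 fold change of -0.44 (SE 0.033, limma adjusted p = 7.1e-10). Its paralogue Eif5a2 was listed at 13.2, 15.05 and 9.26 CPM in siCtrl and 12.7, 12.8 and 11.8 CPM in siAldoa, and at this depth a difference was not detectable (95% interval -0.35 to 0.38). The enzymes that make hypusine, Dhps and Dohh, were not called (log2 fold changes -0.19 and -0.09, limma adjusted p = 0.18 and 0.37). Eif5, the GTPase-activating protein of eIF2, fell from 443 ± 1.48 to 387 ± 19.1 CPM (mean ± SD, n = 3, log2 fold change -0.19, limma adjusted p = 0.00094). Eif5b, the subunit-joining GTPase, fell from 257 ± 9.87 to 225 ± 1.54 CPM (log2 fold change -0.19, limma adjusted p = 0.0029).

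The most abundant elongation factor mRNAs were higher after Aldoa knockdown. Eef2 (ENSMUSG00000034994, chr10:81176631-81182498, plus strand), the translocase, had 4468, 4345 and 4202 CPM in the siCtrl libraries and 5131, 5123 and 5398 CPM in the siAldoa libraries. Eef1a1 (ENSMUSG00000037742, chr9:78478449-78489151, minus strand), which delivers aminoacyl-tRNAs, had 5433, 5459 and 5342 CPM in the siCtrl libraries and 6039, 6099 and 6136 CPM in the siAldoa libraries. Neither gene showed overlap between the groups, and the log2 fold changes were 0.27 for Eef2 (SE 0.027, limma adjusted p = 1.1e-07) and 0.17 for Eef1a1 (SE 0.022, limma adjusted p = 4.1e-06). Under quantile normalization Eef1a1 kept its sign and lost the call (log2 fold change 0.097, limma adjusted p = 0.093).

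The subunits of eEF1B, which recycle eEF1A, differed in direction. Eef1g had 914, 853 and 895 CPM in the siCtrl libraries and 835, 784 and 795 CPM in the siAldoa libraries, and Eef1d had 291, 294 and 297 CPM in the siCtrl libraries and 266, 249 and 269 CPM in the siAldoa libraries. Both were lower in every siAldoa library, by log2 fold changes of -0.14 (limma adjusted p = 0.005) and -0.17 (limma adjusted p = 0.0068), and were called in 4 of the 9 and 5 of the 9 fits with libraries left out. Under quantile normalization both lost the call, with log2 fold changes of -0.032 for Eef1g (limma adjusted p = 0.64) and -0.12 for Eef1d (limma adjusted p = 0.081). Eef1b2 had 611, 645 and 654 CPM in the siCtrl libraries and 667, 657 and 695 CPM in the siAldoa libraries. Its groups did not overlap, with the siAldoa libraries on the higher side, but the gene was not called (log2 fold change 0.08, limma adjusted p = 0.13) except under quantile normalization (0.14, limma adjusted p = 0.025).

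The promoters of both higher elongation factor genes are shown with the matches in capitals, at chr10:81176521-81176660 on the plus strand for Eef2 and chr9:78481695-78481834 on the minus strand for Eef1a1 (GRCm38.p6, RefSeq starts, 110 bases before to 30 after).
Eef2: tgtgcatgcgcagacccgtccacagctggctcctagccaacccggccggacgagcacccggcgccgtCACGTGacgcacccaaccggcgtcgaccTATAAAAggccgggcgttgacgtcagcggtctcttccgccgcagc
Eef1a1: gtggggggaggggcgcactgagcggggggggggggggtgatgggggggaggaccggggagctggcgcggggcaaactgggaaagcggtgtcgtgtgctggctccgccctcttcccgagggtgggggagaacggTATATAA
Eef2 carries an E-box that begins 43 bases before the start and a TATA-like match 15 bases before it, and Eef1a1 a TATA-like match that begins 24 bases after the RefSeq start.

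Of the 49 genes 39 had a RefSeq promoter window of 250 bases before to 50 after a start, 300 bases per start. Genes with several annotated starts, such as Eif5a, were searched in every window and counted if any window matched. More sequence was therefore searched in such genes, and the number of starts was not matched between the factors and all genes. The E-box CACGTG, which reads the same on both strands, was found in 11 of the 39 (28.2%) and in 1229 of the 11192 genes of the table with a window (11.0%). It was present in 5 of 16 lower genes (Eif4a1, Eif4e, Eif4g1, Eif4h and Eif5a), in 3 of 7 higher genes (Eef2, Eif3a and Eif3f) and in 3 of 16 not called (Eif1b, Eif3k and Eif5a2). The TATA-like TATANAA, searched on both strands, was found in 5 of 39 factors (12.8%) and in 819 of 11192 genes (7.32%). It was present in 3 of 7 higher genes (Eef1a1, Eef2 and Eif1), in 1 of 16 lower (Eif3c) and in 1 of 16 not called (Eif2s3y). The motifs cannot overlap each other, both were chosen after the values were seen, and these counts are a description.

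Of 9 factors on a fixed list of TOP mRNAs, 4 were higher (Eef1a1, Eef2, Eif3f and Eif4b) and 2 lower (Eef1d and Eef1g). Eef1b2, Eif3e and Eif3h were not called. The shares were 44.4% higher and 22.2% lower, against 17.5% and 19.1% of all genes of at least 20 CPM. At 500 CPM or more 21.0% of all genes were called higher and 42.4% lower. The median log2 fold change of the list was 0.08, against -0.13 over all 49 factors. Rpl18, a ribosomal protein gene of the same TOP class, had 172, 176 and 187 CPM in the siCtrl libraries and 178, 173 and 191 CPM in the siAldoa libraries, and was not called (log2 fold change 0.02, limma adjusted p = 0.85).

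Summed over genes grouped by name, the initiation factors were lower and the elongation factors higher in siAldoa. The 43 initiation factors and 4E-BPs summed to 14558 ± 45.1 CPM in siCtrl and 13260.1 ± 30.1 CPM in siAldoa (mean ± SD, n = 3), 91.1% of the siCtrl level. The 5 genes named as elongation factors summed to 11568 ± 165 CPM and 13048 ± 213 CPM, 113% of the siCtrl level. In neither case did the libraries of the groups overlap. By name the first sum includes Eif1ad, Eif5a2 and Eif5a, which fell from 1234 to 907 CPM. As Eif5a acts in elongation, counting it with the elongation factors would make both differences smaller. Eef1a1 and Eef2 made up most of the second sum, with 9749.8 ± 185 CPM in siCtrl and 11309 ± 197 CPM in siAldoa. Over all 49 genes the sums were 26129 ± 186 CPM and 26312 ± 220.2 CPM, and the groups overlapped. Sums of CPM weigh abundant and long transcripts most, and CPM is relative to all reads, so the amount of factor mRNA per cell was not measured.

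**Figure D3:**
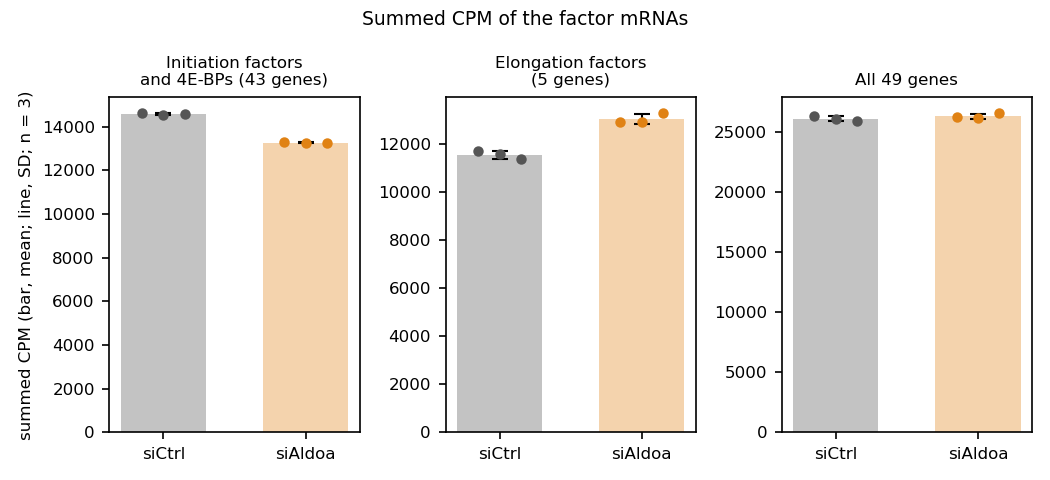
Summed CPM of the 43 initiation factors and 4E-BPs, the 5 elongation factors and all 49 genes (y axes, each starting at 0) in the siCtrl and siAldoa libraries (x axis). Genes are classed by name, so Eif5a counts in the first panel. Bars are means, lines SDs and dots the 3 libraries of a group. The siAldoa libraries lie lower in the first panel, higher in the second, and overlap with siCtrl in the third.

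Per kilobase of annotated exon, Eef1a1 was the most abundant factor mRNA in siCtrl (2171 CPM per kb), ahead of Eef2 (1305), Eif5a (519), Eef1g (341), Eif4b (254) and Eef1b2 (251). Eif4g3 (3.28 CPM per kb), Eif5a2 (2.48) and Eif2c5 (2.36) were the lowest. In siAldoa the level per kilobase was 2443 for Eef1a1, 1569.7 for Eef2 and 382 for Eif5a, so these 3 stood in the same order in both groups. The order depended on the near-identical copies described next. When each factor was summed with its pseudogene copies, Eef1g (865 CPM per kb in siCtrl and 802 in siAldoa) ranked above Eif5a (730.2 and 529), and Eif4a1 (463 and 378) above Eif4b (307 and 364), while Eef1a1 and Eef2 still ranked first and second.

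Translation factor genes have left many processed copies in the mouse genome, and 23 of the 49 shared at least 200 transcript bases at 90% identity or more with another gene of the table. Of their 45 pseudogene copies 31 had at least 20 CPM in siCtrl, and 27 of these were annotated with a single exon. The authors aligned with bowtie2, which does not split reads across introns, so reads over exon junctions can be placed on an intronless copy. Eif4a-ps4, 99.9% identical to Eif4a1 over 1218 bases, had 1296 CPM in siCtrl and 1061 CPM in siAldoa, which is 197% of the level of Eif4a1 itself. Gm13456, a copy of Eef1a1, had 2798 and 3107 CPM, and Gm4366, a copy of Eef1g, 1176 and 1093 CPM.

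Most copies shared the direction of their parent gene. Of the 27 copies with at least 20 CPM whose parent was called, 25 had the sign of the parent, 19 were themselves called in its direction and 0 were called in the other, by limma at the adjusted or unadjusted threshold, edgeR or DESeq2. Below 20 CPM, Gm6155, a copy of Eif1 at 96.2% identity, was called lower (13.95 CPM in siCtrl and 9.59 CPM in siAldoa, log2 fold change -0.49, limma adjusted p = 0.045), while Eif1 was called higher. The log2 fold change was -0.29 for Eif4a-ps4 (parent -0.28), -0.50 for Eif5al3-ps (parent Eif5a, -0.44), 0.29 for Gm13050 (parent Eef2, 0.27) and 0.41 for Gm4784 (parent Eif4b, 0.21). Reads of parent and copy cannot be told apart where the sequences agree, so the copies are no separate support. When each factor was summed with its pseudogene copies, 28 of 29 calls were kept, and the other, Eif3j2, had been added to Eif3j1. Of the 23 factors with a near copy 15 were called lower and 5 higher, and of the 26 without one 7 lower and 2 higher, with a median log2 fold change of -0.054. Most lower calls thus fell on factors with a near copy. Over all genes of at least 20 CPM 19.1% were called lower and 17.5% higher.

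**Figure D4:**
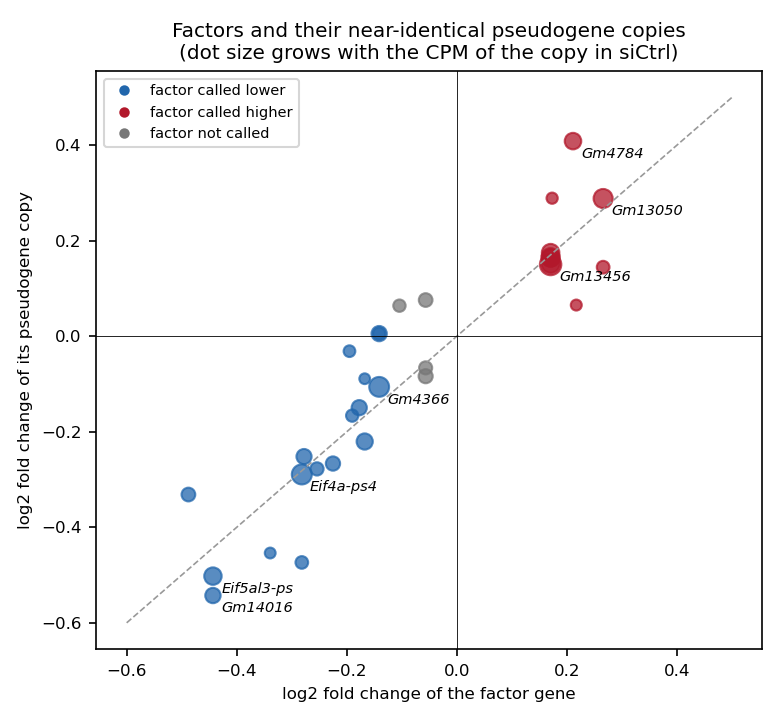
Log2 fold change of each pseudogene copy with at least 20 CPM in siCtrl (y axis) against that of its parent factor gene (x axis), both on the log2(CPM + 1) scale, coloured by the call of the parent. The dashed line marks equal change, and dot size grows with the CPM of the copy. The copies of Eif5a lie at the lower left and the copies of Eef2, Eef1a1 and Eif4b at the upper right.

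Exons of 8 factor genes overlap another gene on the opposite strand (Eef1b2, Eif1ad, Eif2a, Eif2b4, Eif2d, Eif3j1, Eif4a2 and Eif5b), and those of Eef1d overlap Naprt on the same strand. The libraries were made with a directional kit, and whether the counting used strand is not given in the sources used here, so the values of these 9 genes may include reads of their neighbours.

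The regulators and modifying enzymes of the factors did not share one direction. Of 29 listed genes 24 were measured, 4 were lower and 5 higher. These are 16.7% and 20.8% of the measured genes, near the 19.1% and 17.5% of all genes of at least 20 CPM. Higher were Impact, an inhibitor of the GCN2 kinase (134 ± 6.98 to 222 ± 17.6 CPM, mean ± SD, n = 3, log2 fold change 0.73, limma adjusted p = 1.8e-09), Ppp1r15a, the stress-induced phosphatase subunit for eIF2 (0.43, 0.0092), the eIF2 kinase genes Eif2ak4 (0.32, 0.0054) and Eif2ak2 (0.27, 0.029), and Mknk2, a kinase of eIF4E (0.27, 0.0089). Lower were the methyltransferase genes Eef2kmt (-0.54, 0.0068), Eef1akmt1 (-0.39, 0.027) and Mettl13 (-0.27, 0.027), which modify eEF2 or eEF1A, and Dph3 (-0.36, 0.0027), which takes part in making the diphthamide of eEF2. Of the diphthamide genes Dph1, Dph2, Dph5, Dph6, Dph7 and Dnajc24 were not called, nor was Eef2k, the kinase that inhibits eEF2 (-0.11, 0.38). Each pair of values is a log2 fold change and a limma adjusted p.

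Among factors of other steps of cytosolic translation, 16 of 18 listed genes were measured, 7 were lower and 3 higher. These are 43.8% and 18.8% of the measured genes, against 19.1% and 17.5% of all genes of at least 20 CPM. Among the 49 factors the shares were 44.9% and 14.3%. Lower were Paip2b, an inhibitor of poly(A)-binding protein (log2 fold change -0.33), Denr (-0.22), Eif6, which keeps large subunits from joining early (-0.20), Abcf1 (-0.18), the termination factor Gspt1 (-0.16), the recycling factor Abce1 (-0.11) and the helicase Ddx3x (-0.11). Higher were Paip1, which stimulates poly(A)-binding protein (0.34), Mcts1, the partner of Denr (0.28), and the poly(A)-binding protein gene Pabpc4 (0.24). Pabpc1 had 2815, 2801 and 2747 CPM in the siCtrl libraries and 2794, 2788 and 2821 CPM in the siAldoa libraries, with overlapping groups. Of 10 mitochondrial translation factors 1 was lower (Gfm1, log2 fold change -0.22, limma adjusted p = 0.006) and 0 were higher by limma, with 0 higher at an unadjusted p under 0.05. Of these factors Mtif3, Mtrf1 and Mtrf1l had means under 20 CPM. Over all genes 10.0% were called lower and 10.4% higher, and among genes of at least 20 CPM 19.1% and 17.5%. The share of lower genes among the mitochondrial factors by limma was above neither background. edgeR called 2 lower and 0 higher, and DESeq2 0 in either direction with 1 lower at an unadjusted p under 0.05.

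Among genes beside the factors, Eif4a3, the eIF4A-like helicase of the exon junction complex, was lower (log2 fold change -0.32, limma adjusted p = 0.00087). Myc, which activates many genes of the translation machinery, had 168, 165 and 177 CPM in the siCtrl libraries and 138, 130.4 and 148 CPM in the siAldoa libraries, with no overlap and a log2 fold change of -0.29 (limma adjusted p = 0.0004), and its part in the changes of the factors was not tested. Fbl, the rRNA methyltransferase gene whose promoter drove a reporter in the study, was not called (log2 fold change -0.13, limma adjusted p = 0.28).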

How the data were processed

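Poly(A) RNA of 3 siCtrl and 3 siAldoa samples was sequenced. Alignment by the authors to mm10 used Bowtie2 (version 2.2.7 in the submitters' processing notes). Equal read numbers were then drawn from each sample and assigned to genes, and the authors deposited CPM for 18001 genes, on a library size scaled by them (sums of 987420 to 1015223 per library). Another deposited table holds their own fold changes and p-values and was not used. The CPM values were whole multiples of the value of 1 read (100% of them within 1e-06), which gave the reads per gene. Precision from reads covers counting error only.

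Groups were compared on log2(CPM + 1) with limma (version 3.58.1, R version 4.3.3) with a mean-variance trend in two-sided tests, with p-values adjusted after Benjamini and Hochberg over the whole table and a threshold of 0.05. Fold changes on this scale are understated for genes with few reads. edgeR (version 4.0.16) and DESeq2 (version 1.42.0) on the recovered reads, other scalings, a filter on low genes, a pseudocount of 0.1, a replicate block and libraries left out were alternatives, and all tests were tried on simulated data. Near-identical transcripts were found with blastn (version 2.17.0) in GENCODE transcripts, which held 17932 of the 18001 identifiers. Promoter sequences are those of RefSeq on GRCm38.p6.

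All 6 values were given for the 12 factors with the smallest adjusted p and for fixed pairs of paralogues, and for further factors where a comparison needed them. Members and lists were chosen with earlier results of these data known. The study calls the samples biological replicates, and the labels do not say whether they came from separate cultures, so p-values measure the spread between these samples. An RNA spike-in was added to the lysis buffer in replicate 1 and after extraction in replicates 2 and 3, and was not used here.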

Additional observations from a re-analysis of the deposited data

How the results depend on the processing

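Of the 29 called factors none changed sign in the alternatives, and 6 kept the call under all scalings and tests. The median log2 fold change of the factors was -0.075 under quantile normalization, -0.116 with each factor summed with its pseudogene copies (chosen after the data were seen), -0.054 without factors that have near-identical copies, and -0.153 to -0.106 with libraries left out. Without the mean-variance trend limma called 6 factors lower and 0 higher (17 and 6 at an unadjusted p under 0.05), and 616 genes lower and 824 higher over all genes. Of the 26 factors without near-identical copies, 7 were lower and 2 higher, against 19.1% and 17.5% of genes of at least 20 CPM. With libraries left out, 12 to 20 factors were lower and 3 to 7 higher, and over all genes 520 to 1371 were lower and 494 to 1464 higher. These fits hold fewer samples. Over all genes DESeq2 called 1117 lower and 1066 higher, and an adjusted p under 0.01 left 1148 and 1160. The cause of the other shifts was not tested.

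Signs turned only for factors that were not called. Under quantile normalization Eif4a2 had a log2 fold change of 0.0037 and Eif5a2 of -0.0073, and Eif5a2 had -0.0027 by edgeR, -0.0015 by edgeR with the replicate block and -0.0043 by DESeq2. With libraries left out the log2 fold changes ranged from -0.17 to 0.014 for Eif1b, -0.11 to 0.035 for Eif2b5, -0.052 to 0.59 for Eif2c5, -0.097 to 0.013 for Eif3e, -0.050 to 0.0065 for Eif3k, -0.0045 to 0.17 for Eif4g3 and -0.17 to 0.16 for Eif5a2.

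The replicate numbers did not meet the criterion for pairing the samples, a correlation over 0.1 for every number. Deviations of same-numbered samples from their group means correlated by 0.036, 0.034 and 0.18 across 9000 genes, which are not independent replicates, and siCtrl replicate 2 correlated best with siAldoa replicate 1 (0.10), not with its own number. The libraries of replicate 3 correlated best with each other, and by -0.13 to -0.074 with those of the other numbers. With the replicate block limma called 21 factors lower and 7 higher, and Eif4e2 lost the call. Over all genes this fit called 8.66% lower and 8.95% higher. Averaging the close replicates 1 and 2 gave 20 and 6 factors, against 8.39% and 8.77% of all genes. Depth limited the rarest factors most, since Eif2c5 and Eif5a2 had few reads in a library.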
